A study of Mus musculus with 12 samples.

Results

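The comparison set the lungs of 24-month-old mice against those of 12-month-old mice. It used 6 of the 12 libraries of an ageing series, chosen by the age on their labels: 3 mice of 24 months and 3 mice of 12 months. All were male, wild-type C57Bl/6J mice from an aged colony at a Japanese geriatrics centre, 1 library came from 1 mouse, and nothing else is recorded to differ between the groups. The other 6 libraries, from mice of 3 and 6 months, entered the filter on low counts and the estimate of the spread between mice, and a few of their levels are given for description. Poly(A) RNA of minced whole lung was sequenced, so fewer cells of a type and less RNA per cell cannot be told apart. Reads had been counted for 35275 genes, of which 16042 held enough reads to be tested.

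The lung is a gas exchange surface of flat type 1 alveolar cells and surfactant-making type 2 cells, laid against a dense capillary bed and fed by airways lined with ciliated and club cells. Resident macrophages, lymphocytes and antibody-secreting cells patrol this surface. In ageing mouse lung, lymphocytes and antibody-secreting cells are known to gather around airways and vessels, while clearance by cilia, matrix renewal and protein quality control are known to change.

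Levels below are CPM, gene reads scaled to the TMM-adjusted size of each library, for mice 1, 2 and 3 in that order. Fold changes are log2 values of 24 over 12 months ± SE from an edgeR quasi-likelihood fit, and a gene was called at an adjusted p under 0.05. Each is given first without and then with a correction that removes each library's smooth trend on the GC content and length of the genes. Coordinates refer to mm10.

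The 6 libraries held 14720869, 17950382 and 16392114 gene reads at 24 months and 21244361, 17024327 and 16146077 at 12 months (exact two-sided permutation p = 0.5). A read was found for 18389, 18513 and 17533 genes at 24 months, against 20020, 19678 and 19539 genes at 12 months. Mitochondrially encoded reads made up 0.629, 0.596 and 0.443% of reads at 24 months and 1.95, 1.96 and 3.12% at 12 months. Both measures separated the ages without overlap (exact two-sided permutation p = 0.1 for each, the smallest that 3 against 3 mice allow). The lung markers were present at both ages. Sftpc, a surfactant protein of type 2 cells, ranked 1 to 2 among all genes in deposited FPKM in the 24-month mice, and Ager, a receptor of type 1 cells, ranked 8 to 11.

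The feature that set the 24-month libraries apart most was the base composition of the genes that gained and lost reads. Read-weighted GC content was 54.1, 54.3 and 55.8% in mice of 24 months, against 51.4, 51.5 and 50.4% in mice of 12 months and 50.1 to 50.7% in the 6 younger mice. In the decile of genes with the lowest GC content (median 39.7%) the median log2 ratio to the 12-month mean was -1.97, -1.90 and -2.63 in 24-month mice 1, 2 and 3. In the decile with the highest (median 59.6%) it was 1.10, 1.25 and 2.38. All 3 mice thus moved along the same curve, and mouse 3 moved farthest at both ends. The 12-month mice differed from one another along GC content too, and mouse 3 of that age stood at 0.82 in the lowest decile relative to the other 2, against -0.38 and -0.56 for mice 1 and 2.

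**Figure D1:**
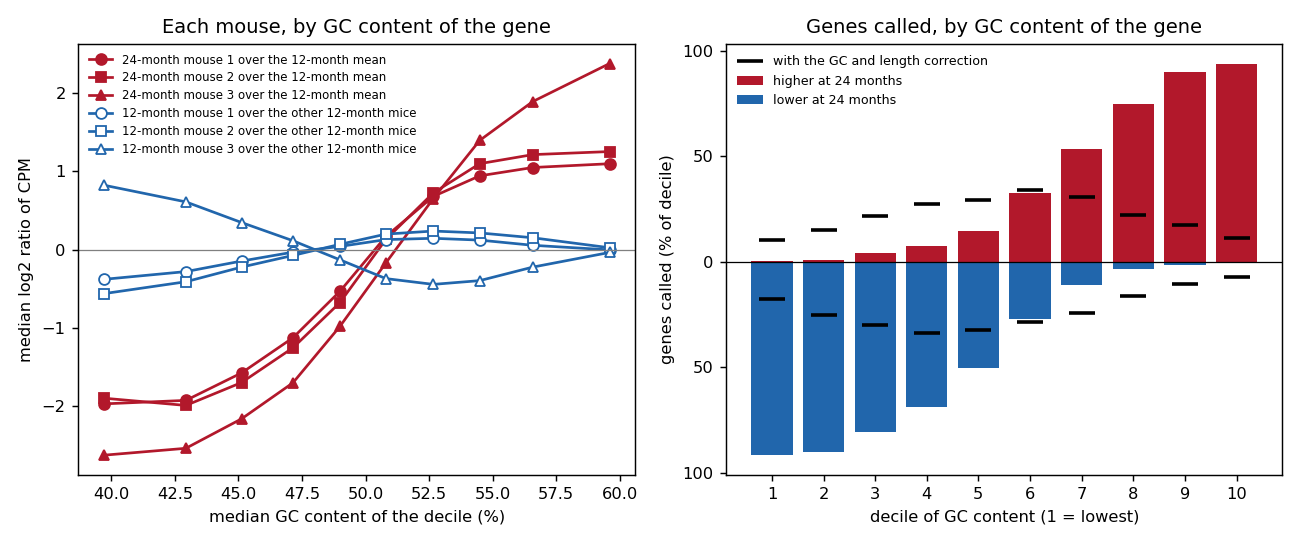
Left, median log2 ratio of CPM against the median GC content (%) of each decile of genes, 1 line per mouse: 24-month mice over the 12-month mean, and each 12-month mouse over the mean of the other 12-month mice. Right, percent of the genes of each GC decile called higher (up) or lower (down) at 24 months, with black dashes for the same after the GC and length correction. In the lowest decile 91.6% of genes were called lower, and in the highest 93.9% were called higher.

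Gene length had a weaker relation that did not run in 1 direction. The longest decile of genes (median 7747 bp) had a median log2 fold change of -1.47, the third shortest (median 1864 bp) 0.35 and the shortest (median 770 bp) -0.04. Read-weighted gene length was 3180, 3318 and 3439 bp at 24 months and 3240, 3142 and 3116 bp at 12 months, which overlapped (exact two-sided permutation p = 0.2). GC content alone accounted for 67.5% of the variance of the fold changes across genes and GC content with length for 70.0%, as a description over genes that share the same libraries. The sources used here give no sequencing batch, date or RNA integrity value, so age and any difference in library preparation cannot be told apart. The part of this trend in any result below was not tested, and the value with the correction stands beside most of the folds given.

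Without the correction 12791 genes were called, 79.7% of those tested, with 5976 higher (37.3%) and 6815 lower (42.5%) at 24 months. With it 7091 of 15949 genes with a GC value were called (44.5%), 3501 higher (22.0%) and 3590 lower (22.5%). Both fits called 5087 genes in the same direction (31.9%) and 658 in opposite directions (4.13%), while 6980 were not called with the correction. The 3 mice of each age did not overlap in CPM for 80.0% of genes, standing above at 24 months for 37.2% and below for 42.8%. Genes called in both fits made up 13.9% of genes in the higher and 18.0% in the lower direction, and counts over gene groups below are read against these shares. The shares cover genes of all GC contents and are not matched to the GC content of a group. Without 24-month mouse 3, 2058 genes were higher and 2824 lower in both fits, against 2219 and 2868 with it. The median log2 fold change of all tested genes was -0.20 with TMM and -0.09 with RLE size factors, and fold changes near 0 should be read against that shift. Library totals without scaling factors, an alternative chosen after the data were seen, gave a median of -0.78 and 11886 calls, 3869 higher and 8017 lower. Among the genes named below, the uncorrected rises of Ighm, Igkc, Cdkn2a, Cd247, Pou2af1, C5ar1, Ly6c2, Emp2, Acta2, Fbln5, Zmat3, Rrm2, Gpx2, Cox5a, Sdhc, Lmnb1, Gss and Lss were not called with library totals. Igj, Sftpc, Sftpd, mt-Nd5, mt-Nd6 and H2-Aa, not called with TMM, were called lower with library totals (-0.86, -0.68, -0.77, -1.09, -1.01 and -0.43). By that scaling 11 T cell genes were higher and 5 lower, 8 plasma cell and immunoglobulin constant genes higher and 3 lower, 8 class II genes higher and 2 lower, and 1 ciliated cell gene higher and 15 lower.

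Some 24-month mice carried transcripts that the other lungs lacked. In 24-month mouse 3, 20 genes stood at 5 CPM or more and at 10 times or more the highest of the other 5 libraries, against 3 genes in mouse 1, 1 in mouse 2 and 0 in each 12-month mouse. The leading ones by level were Krt4 and Krt13, keratins of wet stratified epithelium such as that of the oesophagus, then Ighg3, an IgG constant region described with the antibody genes, and Acta1, the actin of skeletal muscle. Krt4 had 0.247, 0.872 and 506 CPM in mice of 24 months, against 0.692, 2.27 and 2.16 CPM in mice of 12 months. Krt13 had 0, 0.364 and 459 CPM in mice of 24 months, against 0.173, 0.663 and 0.233 CPM in mice of 12 months. Acta1 had 0.576, 0.800 and 196 CPM in mice of 24 months, against 0.346, 1.82 and 0.992 CPM in mice of 12 months. Only the triangle of 24-month mouse 3 is high for Krt4, Krt13 and Acta1 in the plot of genes with single high mice.

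Cornifying genes shared that pattern: Lor, a protein of the cornified envelope, had 9, 10 and 1586 reads in the 24-month mice, against 14, 6 and 3 reads in the 12-month mice, and Cnfn and Crct1 had 323 and 97 reads in 24-month mouse 3 and 0 in the other 5 mice. Myh8, a muscle myosin, had 62 reads in that mouse alone. The 13 listed genes of skin and squamous epithelium summed to 16.5, 39.6 and 393 CPM at 24 months and to 17.8, 47.2 and 33.6 CPM at 12 months. The 20 listed heart muscle genes summed to 1343, 811 and 1494 CPM at 24 months and 875, 909 and 858 CPM at 12 months. Clec4f, a lectin of liver macrophages, had 19, 354 and 0 reads in the 24-month mice, against 0, 0 and 0 reads in the 12-month mice, while Alb, the serum albumin made by hepatocytes, had 13, 0 and 1 reads in the 24-month mice, against 21, 15 and 35 reads in the 12-month mice. For many results in which mouse 3 weighed, though not for all, the value without it is also given below.

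**Figure D2:**
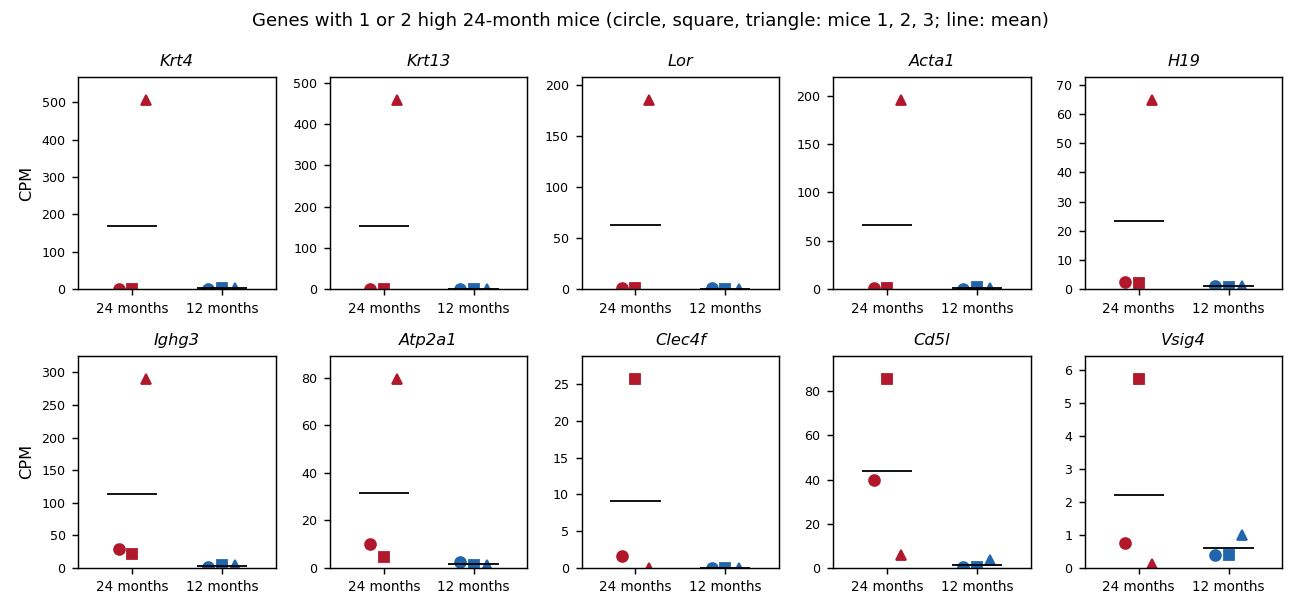
CPM of 10 genes in each mouse, 24 months left and 12 months right, with circle, square and triangle for mice 1, 2 and 3 and a line at the mean. Krt4, Krt13, Lor, Acta1, H19, Ighg3 and Atp2a1 are high in 24-month mouse 3, and Clec4f, Cd5l and Vsig4 are highest in 24-month mouse 2.

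The largest rises that were called in both fits, with no overlap between ages, were led by immune genes. The 12 largest without the correction were Ighg3, Cd5l, H19, Atp2a1, Wnt10a, Lag3, Asprv1, Oas3, Dnase1l3, Ccl5, Rasal1 and Gpr84, and the correction added Cd6, Cd3e and Tspan33. Ccl5, a chemokine of activated T cells, had 163, 314 and 422 CPM in mice of 24 months, against 18.9, 24.8 and 37.4 CPM in mice of 12 months. That gave 3.47 ± 0.33 at adjusted p = 8.8e-07, and with the correction 3.35 ± 0.29 at adjusted p = 2.4e-06. Dnase1l3, a DNase secreted by macrophages and dendritic cells, had 14.3, 24.9 and 65.7 CPM in mice of 24 months, against 3.55, 3.21 and 1.87 CPM in mice of 12 months. The fit gave 3.59 ± 0.48 at adjusted p = 9.7e-06, and with the correction 4.74 ± 0.61 at adjusted p = 6.2e-05. In both genes every 24-month mouse stood well above every 12-month mouse. Cd5l, a scavenger protein of tissue macrophages, had 40.002, 85.7 and 5.86 CPM in mice of 24 months, against 0.389, 0.276 and 3.68 CPM in mice of 12 months (4.98 ± 1.01 at adjusted p = 5.9e-04, and with the correction 4.61 ± 1.10 at adjusted p = 0.007), so its groups lay close at 24-month mouse 3 and 12-month mouse 3. Gpr84, a fatty acid receptor of myeloid cells, and Wnt10a, a Wnt ligand, were low genes of at most 5.62 and 4.45 CPM and rose by 3.43 ± 0.69 and 4.05 ± 0.57 (2.53 ± 0.64 and 2.27 ± 0.49 with the correction).

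Others of the 12 rested largely on 24-month mouse 3. H19, an imprinted non-coding RNA, had 2.39, 2.18 and 64.9 CPM in mice of 24 months, against 1.125, 0.608 and 1.11 CPM in mice of 12 months (4.57 ± 1.11 at adjusted p = 0.0021, and with the correction 2.98 ± 1.05 at adjusted p = 0.039), and without that mouse it had 1.26 and, with the correction, 0.19 (adjusted p = 0.72). The corrected call of H19 was also lost without any 1 of the 12-month mice (3.10, 2.70 and 3.18). Atp2a1, the calcium pump of fast skeletal muscle, had 4.23 ± 0.86 (corrected 2.67 ± 0.77), and 2.15 and 1.04 without that mouse. Its corrected call was lost without 12-month mouse 2 (2.47) or 3 (2.57). Lag3, an inhibitory receptor of T cells, had 17.0, 17.8 and 115 CPM in mice of 24 months, against 3.46, 2.98 and 4.09 CPM in mice of 12 months (3.82 ± 0.59, corrected 1.91 ± 0.38), and kept both calls without mouse 3 at 2.31 and 1.15. Rasal1, a Ras GTPase activator, had 3.46 ± 0.67 (corrected 1.42 ± 0.48), and 2.16 and 0.91 (adjusted p = 0.15) without mouse 3, and its corrected call was lost also without 12-month mouse 1 (1.44) or 2 (1.22). Asprv1, a skin protease, had 3.71 ± 0.55 (corrected 2.73 ± 0.48), and 1.75 corrected without mouse 3.

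The largest falls called in both fits were mostly of low, GC-poor genes. They were Zfp141, Sfmbt2, Zfp39, Clec12b, Atm, Rsph4a, Alkbh8, Eml5, Fancm, Zfp65 and Utp14b, with log2 fold changes of -4.60 ± 0.59 to -3.81 ± 0.54 without and -2.83 to -1.61 with the correction, beside 1 clone-named non-coding gene. Rsph4a, a radial spoke protein of motile cilia, was the most abundant, with 2.14, 1.16 and 0.351 CPM in mice of 24 months, against 16.3, 17.4 and 32.0 CPM in mice of 12 months. This was -4.09 ± 0.40 at adjusted p = 1.1e-06, and with the correction -2.16 ± 0.29 at adjusted p = 3.8e-05. Atm, the kinase that senses double-strand breaks, had 0, 0.364 and 0.117 CPM in mice of 24 months, against 3.16, 3.04 and 4.44 CPM in mice of 12 months. The contrast was -4.30 ± 0.55 at adjusted p = 7.0e-06, and with the correction -2.14 ± 0.56 at adjusted p = 0.0068. Fancm, a DNA translocase of the Fanconi pathway, and Alkbh8, a tRNA methyltransferase, had -3.93 ± 0.48 and -4.09 ± 0.60 (-1.93 ± 0.44 and -1.99 ± 0.48 with the correction). These genes hold few reads at 24 months, and their corrected values moved with single mice. Atm had -1.41 without 24-month mouse 1 and -3.85 without mouse 2, Zfp141 -3.68 without mouse 1, and Fancm -2.92 without mouse 2. Eml5, a microtubule-associated protein, lost its corrected call without 24-month mouse 2 (-1.54) and had -3.17 without mouse 1, and Utp14b, a factor of ribosome assembly, lost its own without 24-month mouse 2 (-1.77) or 12-month mouse 1 (-1.32).

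The largest falls with the correction were of genes of middle or high GC content. Pawr, a pro-apoptotic regulator, had 5.68, 5.96 and 9.60 CPM in mice of 24 months, against 23.9, 23.3 and 24.3 CPM in mice of 12 months. The estimate was -1.77 ± 0.21 at adjusted p = 3.7e-06, and with the correction -3.01 ± 0.15 at adjusted p = 1.3e-07. Tshz1, a zinc finger transcription factor, had 4.03, 5.82 and 1.99 CPM in mice of 24 months, against 22.1, 20.8 and 23.1 CPM in mice of 12 months. edgeR gave -2.44 ± 0.29 at adjusted p = 3.3e-06, and with the correction -3.39 ± 0.28 at adjusted p = 1.7e-06. Ccdc40 and Maats1, both needed to build motile cilia axonemes, had -1.76 ± 0.33 and -3.19 ± 0.37 (-2.99 ± 0.40 and -3.22 ± 0.37 with the correction). In each of these 4 genes the highest 24-month mouse lay below the lowest 12-month mouse. Chp2, a calcineurin-like protein, and Tchh, a filament-associated protein, were lower as well (-3.08 ± 0.49 and -3.05 ± 0.34 with the correction). At the limit of detection, Fam171b had 3 reads over the 24-month mice and 101 over the 12-month mice (ratio 0.0329, exact 95% interval 0.00668 to 0.0991), and C1qtnf3 had 1 against 92 reads (ratio 0.0121, interval 0.000302 to 0.0689). Dhrs9 had 3 against 81 reads and Slc10a5 1 against 80 reads. These intervals cover counting error only.

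T cell genes were more often higher than lower at 24 months. Of 27 tested T cell genes 14 were called higher and 3 lower without the correction (median log2 0.77), and 18 higher and 0 lower with it (median 0.84), beside medians of -0.20 and -0.01 over all genes. In both fits 13 were higher and 0 lower (48.1% of the list, against 13.9% of all genes), and without 24-month mouse 3 the counts were 13 higher and 0 lower. Cd3e (chr9:44998743-45009590), a signalling chain of the T cell receptor, had 30.3, 40.1 and 72.4 CPM in mice of 24 months, against 8.004, 5.80 and 9.63 CPM in mice of 12 months. That gave 2.60 ± 0.30 at adjusted p = 3.2e-06, and with the correction 4.04 ± 0.38 at adjusted p = 3.9e-06. Cd6, a T cell coreceptor, had 20.2, 33.0 and 55.6 CPM in mice of 24 months, against 4.15, 3.37 and 6.48 CPM in mice of 12 months. The fit gave 2.96 ± 0.35 at adjusted p = 3.5e-06, and with the correction 4.08 ± 0.44 at adjusted p = 1.2e-05. The lowest 24-month mouse of each lay more than 3 times above the highest 12-month mouse. Lef1, a transcription factor of naive T cells, had 1.39 ± 0.24 (corrected 2.96 ± 0.24), Cd247, the zeta chain of the receptor, 1.121 ± 0.27 (corrected 2.83 ± 0.24), Lck, its proximal kinase, 2.67 ± 0.29 (corrected 1.58 ± 0.24), and Cd5, a negative regulator of it, 2.3497 ± 0.31 (corrected 0.99 ± 0.22). Each rose in both fits.

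Genes of NK and cytotoxic lymphocytes did not move as a block. Of 20, 5 were called higher and 6 lower without the correction (median log2 -0.34), and 9 higher and 2 lower with it (median 0.85), and 5 were higher and 2 lower in both fits (5 higher and 0 lower without 24-month mouse 3). Nkg7, a granule protein of cytotoxic cells, had 37.0, 55.5 and 42.0 CPM in mice of 24 months, against 7.05, 7.35 and 9.40 CPM in mice of 12 months. This was 2.501 ± 0.23 at adjusted p = 8.3e-07, and with the correction 2.25 ± 0.19 at adjusted p = 1.7e-06. Il2rb, the shared receptor chain for IL-2 and IL-15, had 3.10 ± 0.26 (corrected 2.05 ± 0.23), and Tbx21, the T-bet factor of type 1 lymphocytes, 2.99 ± 0.36 (corrected 1.31 ± 0.23). All 3 mice of 24 months stood above all of 12 months for these 3 genes. The list has a median GC content of 46.1%, on the side of the trend with fewer reads at 24 months.

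**Figure D3:**
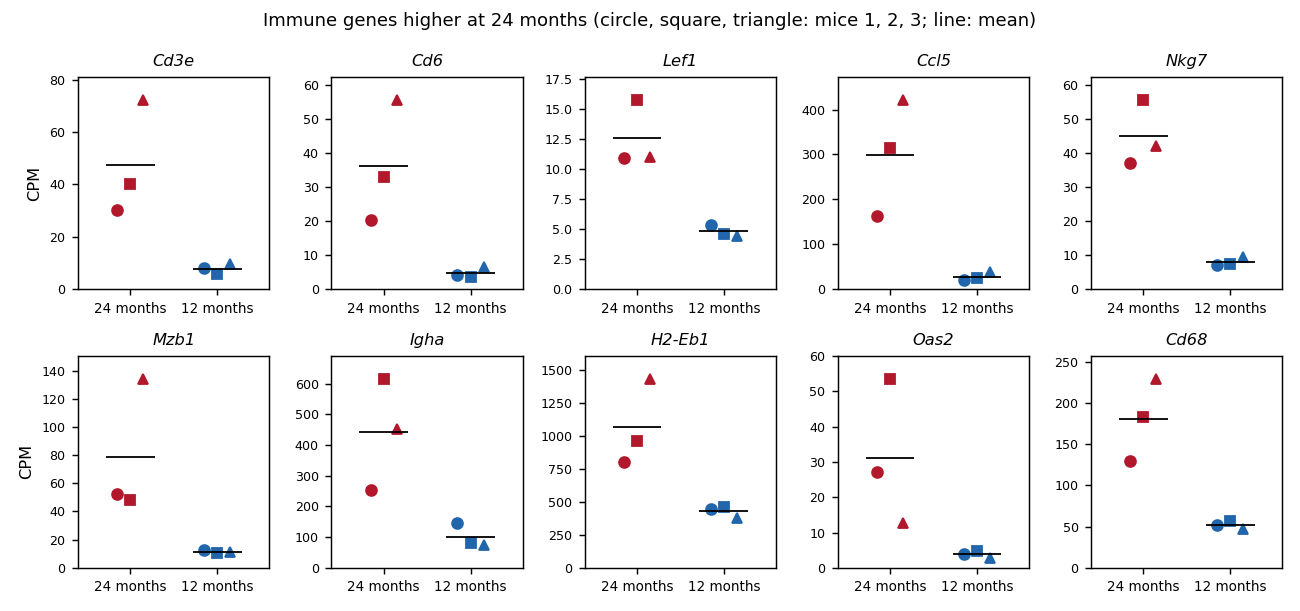
CPM of 10 immune genes in each mouse, 24 months left and 12 months right, with circle, square and triangle for mice 1, 2 and 3 and a line at the mean. The groups do not overlap in any panel. Among the 24-month mice, mouse 3 leads for Cd3e, Cd6 and Mzb1 and mouse 2 for Oas2 and Igha.

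Antibody genes were more often higher than lower at 24 months, with a spread that differed between isotypes. Of 21 tested plasma cell and immunoglobulin constant genes 12 were called higher and 2 lower without the correction (median log2 1.20), and 13 higher and 0 lower with it (median 1.62). In both fits 10 were higher and 0 lower, and 6 higher and 0 lower without 24-month mouse 3. Immunoglobulin reads made up 0.434, 0.330 and 0.356% of all reads at 24 months and 0.216, 0.277 and 0.302% at 12 months (exact two-sided permutation p = 0.1, the smallest possible). Mzb1, a chaperone of antibody secretion, had 52.6, 48.4 and 134 CPM in mice of 24 months, against 12.4, 10.7 and 11.4 CPM in mice of 12 months. The contrast was 2.76 ± 0.36 at adjusted p = 7.1e-06, and with the correction 2.30 ± 0.30 at adjusted p = 4.0e-05. Igha, the constant region of IgA, the antibody of mucosal surfaces, had 255, 616 and 453 CPM in mice of 24 months, against 145, 81.2 and 73.1 CPM in mice of 12 months. The estimate was 2.14 ± 0.34 at adjusted p = 4.0e-05, and with the correction 2.03 ± 0.31 at adjusted p = 1.8e-04. Both genes separated the ages fully, and neither lost its call in any fit that left out 1 mouse.

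Ighm (chr12:113418950-113422730), the constant region of IgM, had 2235, 1504 and 2580.2 CPM in mice of 24 months, against 726, 1020.3 and 889.6 CPM in mice of 12 months (1.26 ± 0.34 at adjusted p = 0.003, and with the correction 1.03 ± 0.32 at adjusted p = 0.019), and its corrected call was lost without 24-month mouse 3 (0.85) or 12-month mouse 1 (0.90). Igkc, the kappa light chain, had 984, 742 and 1228 CPM in mice of 24 months, against 438, 577 and 734 CPM in mice of 12 months. edgeR gave 0.76 ± 0.33 at adjusted p = 0.046, and with the correction 0.48 ± 0.19 at adjusted p = 0.054. Its call without the correction was lost without 24-month mouse 1 (0.76) or 3 (0.57) and without 12-month mouse 1 (0.37) or 2 (0.75). Igj, the chain that joins IgA and IgM units, had 88.3, 92.1 and 160.0 CPM in mice of 24 months, against 93.2, 102 and 191 CPM in mice of 12 months, with -0.18 ± 0.36 (adjusted p = 0.64) and 1.62 ± 0.37 at adjusted p = 0.0032 with the correction, which was 1.04 without 24-month mouse 3. With library totals and no correction Igj had -0.86 and was called lower, so its direction turned on the processing. Ighg3 and Ighg1, both IgG constant regions, were highest in 24-month mouse 3. Ighg3 had 28.6, 20.9 and 290.3 CPM in mice of 24 months, against 0.606, 4.03 and 5.02 CPM in mice of 12 months (5.16 ± 1.17 at adjusted p = 0.0018, and with the correction 4.87 ± 1.17 at adjusted p = 0.0083), and 2.97 and 2.78 without mouse 3. Ighg1 had 23.0, 30.4 and 283 CPM in mice of 24 months, against 10.9, 11.5 and 9.46 CPM in mice of 12 months (3.40 ± 0.90 at adjusted p = 0.004, and with the correction 3.51 ± 0.99 at adjusted p = 0.017), and 1.33 and 1.43 without mouse 3, and its corrected call was lost without any 1 of the 12-month mice (3.55, 3.54 and 3.46). Ighg2c, another, had 185, 244 and 212 CPM in mice of 24 months, against 74.1, 88.0 and 142 CPM in mice of 12 months and was called in neither fit (1.07 ± 1.14 at adjusted p = 0.40, and with the correction 0.49 ± 1.06 at adjusted p = 0.73). These IgG genes are close paralogs, and the sources used here do not say which of them received shared reads.

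Of 65 tested heavy chain V segments 42 were called higher and 1 lower without the correction (median log2 1.54), and 34 higher and 1 lower with it (median 1.44). In both fits 34 were higher and 1 lower, and 23 higher and 0 lower without 24-month mouse 3. Of 65 kappa V segments, 12 were called higher and 6 lower without the correction (median log2 0.37), and 9 higher and 8 lower with it (median 0.33). In both fits 9 of the kappa segments were higher and 5 lower, and 7 higher and 2 lower without that mouse. Ighv1-15 was high in 1 mouse, with 32.3, 1.67 and 2.11 CPM at 24 months and 1.38, 0.608 and 1.34 CPM at 12 months. B cell genes followed in part. Of 20, 9 were called higher and 6 lower without the correction (median log2 0.90), and 10 higher and 0 lower with it (median 0.98), and 8 were higher and 0 lower in both fits (5 higher and 0 lower without 24-month mouse 3). Vpreb3, a B cell receptor assembly protein, had 55.6, 61.2 and 93.1 CPM in mice of 24 months, against 25.6, 34.7 and 27.3 CPM in mice of 12 months (1.26 ± 0.23, corrected 1.21 ± 0.18). Pou2af1, a B cell coactivator, had 1.31 ± 0.33 (corrected 1.98 ± 0.36), Blk, a B cell kinase, 2.25 ± 0.36 (corrected 1.19 ± 0.33), and Spib, a transcription factor of B and plasmacytoid cells, 2.83 ± 0.45 (corrected 1.49 ± 0.36) (0.88 corrected without 24-month mouse 3). Ms4a1, the CD20 surface protein, had 7.98, 6.69 and 12.5 CPM in mice of 24 months, against 15.3, 11.99 and 37.4 CPM in mice of 12 months. It had -1.26 ± 0.44 at adjusted p = 0.016 without the correction, a call lost without 24-month mouse 2 (-1.08) or 12-month mouse 3 (-0.61), and 0.98 ± 0.48 at adjusted p = 0.12 with it.

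Chemokines and cytokines that organise lymphoid tissue were higher in part. Of 11 tested, 7 were called higher and 1 lower without the correction (median log2 0.89), and 5 higher and 0 lower with it (median 0.30). In both fits 3 were higher and 0 lower. The median GC content of the list was 55.5%. In that decile 75.0% of all genes were called higher and 3.57% lower without the correction, and 22.1% higher and 16.1% lower with it. Ccl19, which draws T cells and dendritic cells into lymphoid tissue, had 7.33, 7.20 and 24.1 CPM in mice of 24 months, against 1.82, 2.21 and 1.58 CPM in mice of 12 months. That gave 2.76 ± 0.45 at adjusted p = 4.8e-05, and with the correction 1.80 ± 0.33 at adjusted p = 5.0e-04. Ltb, the lymphotoxin beta chain, had 72.3, 91.2 and 272 CPM in mice of 24 months, against 23.1, 21.0 and 24.8 CPM in mice of 12 months (2.66 ± 0.43, corrected 0.96 ± 0.24). The 24-month mice lay above the 12-month mice for both, and mouse 3 was highest. Without that mouse Ccl19 had 1.95 and, with the correction, 1.30, and Ltb 1.83 and 0.70. Lta, its partner chain, had 2.48 ± 0.47 (corrected 1.51 ± 0.43) and lost its corrected call without 12-month mouse 1 (1.22).

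Class II antigen presentation had the largest share of members called higher in both fits among the lists described, at 7 of 11, with 0 lower. The median GC content of the list was 53.8%. In that decile 75.0% of all genes were called higher and 3.57% lower without the correction. A call in both fits was thus more open to rises there than to falls. Class II molecules display peptides to helper T cells, and their genes are switched on by the coactivator Ciita through conserved boxes near the start. Of the 11, 8 were called higher and 1 lower without the correction (median log2 2.02), and 9 higher and 0 lower with it (median 1.01), and the counts in both fits without 24-month mouse 3 were 7 higher and 0 lower. H2-Eb1, a class II beta chain, had 805, 963 and 1435 CPM in mice of 24 months, against 443, 459 and 381 CPM in mice of 12 months. The fit gave 1.32 ± 0.25 at adjusted p = 1.6e-04, and with the correction 1.17 ± 0.19 at adjusted p = 1.6e-04. Ciita had 73.6, 113 and 228 CPM in mice of 24 months, against 29.1, 32.0 and 15.5 CPM in mice of 12 months. This was 2.43 ± 0.39 at adjusted p = 4.7e-05, and with the correction 1.01 ± 0.25 at adjusted p = 0.0047. H2-Aa, an alpha chain of lower GC content, had 709, 747 and 923 CPM in mice of 24 months, against 664, 709 and 691 CPM in mice of 12 months, with 0.20 ± 0.19 (adjusted p = 0.33) and 1.24 ± 0.17 at adjusted p = 5.8e-05 with the correction. H2-Ab1, Cd74, the invariant chain, and H2-DMa, a peptide exchange factor, had 2.05 ± 0.36, 2.02 ± 0.33 and 2.19 ± 0.37 (0.79 ± 0.21, 0.81 ± 0.18 and 1.1202 ± 0.28 with the correction). Mouse 3 weighed on these and on Ciita: without it H2-Ab1 had 1.34 and 0.45, H2-DMa 1.43 and 0.61, Ciita 1.86 and 0.68, and Cd74 0.54 with the correction, all still called. The Y box core CTGATTGG, on either strand, was found in the promoter window of 3 of the 8 class II members with a RefSeq promoter, H2-Aa, H2-Eb1 and H2-Oa, and in 4.10% of all 32851 windows. Of these 3 members, 1 was higher and 0 lower in both fits. Among 712 tested genes with the box 32.7% were called higher and 49.6% lower, against 38.5% and 42.7% of 10776 genes without it. With the correction the shares were 21.35% and 21.9%, against 22.3% and 23.0%. The part of the box in the class II result was not tested. The windows of H2-Eb1 and H2-Aa are shown since both genes were called higher with the correction while their folds without it differed. They run from 250 bases before to 50 after the start (RefSeq, GRCm38.p6), with the box in capitals.
H2-Eb1 (chr17:34305617-34305916, strand plus): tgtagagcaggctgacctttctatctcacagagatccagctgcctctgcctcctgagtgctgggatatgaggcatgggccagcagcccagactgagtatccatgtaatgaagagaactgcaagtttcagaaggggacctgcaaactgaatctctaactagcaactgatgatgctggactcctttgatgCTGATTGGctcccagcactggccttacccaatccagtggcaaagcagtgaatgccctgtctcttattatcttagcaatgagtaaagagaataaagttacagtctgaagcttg
H2-Aa (chr17:34287774-34288073, strand minus): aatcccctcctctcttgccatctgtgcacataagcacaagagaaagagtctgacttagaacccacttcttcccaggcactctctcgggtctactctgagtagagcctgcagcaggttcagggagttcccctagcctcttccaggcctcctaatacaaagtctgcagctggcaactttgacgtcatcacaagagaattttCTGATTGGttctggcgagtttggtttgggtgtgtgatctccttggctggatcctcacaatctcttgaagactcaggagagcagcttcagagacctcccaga

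Class I genes, which show peptides to cytotoxic T cells, were higher in both fits for 9 of 20 members and lower for 2 (12 higher and 1 lower without 24-month mouse 3). Their median GC content was 54.2%, in the same decile as that of the class II list. Without the correction 15 were called higher and 3 lower, and with it 10 higher and 2 lower. H2-K1, a classical class I chain, had 3611, 4976 and 4645 CPM in mice of 24 months, against 1412, 1562 and 1313 CPM in mice of 12 months. The contrast was 1.63 ± 0.21 at adjusted p = 6.2e-06, and with the correction 0.68 ± 0.13 at adjusted p = 7.4e-04. H2-T22, a nonclassical chain, had 1.29 ± 0.23 (corrected 1.20 ± 0.15), and H2-Q6 and H2-Q7 2.27 ± 0.28 (corrected 1.17 ± 0.19) and 2.31 ± 0.29 (corrected 1.67 ± 0.28), though reads of these near-identical H2-Q genes may have been shared. Psme2, a proteasome activator subunit of the same pathway, moved the other way, with 60.7, 59.3 and 58.2 CPM in mice of 24 months, against 96.1, 104 and 117 CPM in mice of 12 months. The estimate was -0.84 ± 0.18 at adjusted p = 5.4e-04, and with the correction -1.09 ± 0.13 at adjusted p = 1.4e-05. Its 24-month mice were tightly grouped below the 12-month mice.

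Interferon-stimulated genes split into members that were higher and members that were lower. Of 31, 9 were called higher and 12 lower without the correction (median log2 -0.06), and 11 higher and 4 lower with it (median 0.34). In both fits 8 were higher and 4 lower, and 13 higher and 3 lower without 24-month mouse 3. Oas2, an enzyme that answers double-stranded RNA, had 27.2, 53.6 and 12.8 CPM in mice of 24 months, against 3.89, 4.81 and 2.80 CPM in mice of 12 months. edgeR gave 3.03 ± 0.40 at adjusted p = 9.1e-06, and with the correction 2.96 ± 0.35 at adjusted p = 2.0e-05. Oas1a and Oas3, of the same family, had 2.27 ± 0.31 (corrected 1.83 ± 0.30) and 3.65 ± 0.45 (corrected 2.39 ± 0.48), and Irf7, the factor that amplifies type I interferon, 89.9, 250.2 and 138 CPM in mice of 24 months, against 22.2, 22.7 and 20.9 CPM in mice of 12 months. That gave 2.86 ± 0.31 at adjusted p = 1.9e-06, and with the correction 1.67 ± 0.30 at adjusted p = 5.0e-04. In these 4 genes 24-month mouse 2 was highest, and without it Oas3 and Irf7 had 1.55 and 1.09 with the correction, both still called. Dhx58, a helicase of RNA sensing, had 2.08 ± 0.27 (corrected 1.116 ± 0.24). Against these, Gbp2, an interferon-induced GTPase, had 15.5, 14.98 and 3.51 CPM in mice of 24 months, against 61.5, 66.2 and 84.5 CPM in mice of 12 months. The fit gave -2.62 ± 0.36 at adjusted p = 1.3e-05, and with the correction -1.51 ± 0.26 at adjusted p = 3.1e-04. Ifit3, a protein of the antiviral IFIT complex, had 14.4, 20.4 and 5.50 CPM in mice of 24 months, against 46.1, 45.3 and 71.5 CPM in mice of 12 months. This was -1.998 ± 0.34 at adjusted p = 7.6e-05, and with the correction -1.09 ± 0.27 at adjusted p = 0.0046. Gbp2 and Ifit3 were named after their values were seen, as members that fell in both fits.

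Members of both directions carried the same element. The core of the interferon response element, GAAA followed after any 2 bases by GAAA on either strand, was found in the promoter window of 13 of 21 list members with a RefSeq promoter, of which 3 were higher and 4 lower in both fits, and in 3.44% of all 32851 windows. Among 443 tested genes with the element 31.6% were called higher and 49.7% lower, against 38.4% and 42.9% of 11045 genes without it, and with the correction 21.9% and 22.4%, against 22.2% and 22.9%. The windows of Oas1a and Oas3, which were higher, and of Gbp2 and Ifit3, which were lower, are set side by side with the element in capitals, 250 bases before to 50 after the start (RefSeq, GRCm38.p6). TTTC marks the element on the other strand, and overlapping matches run together. A match is a match of letters, not a shown site of binding.
Oas1a (chr5:120907476-120907775, strand minus): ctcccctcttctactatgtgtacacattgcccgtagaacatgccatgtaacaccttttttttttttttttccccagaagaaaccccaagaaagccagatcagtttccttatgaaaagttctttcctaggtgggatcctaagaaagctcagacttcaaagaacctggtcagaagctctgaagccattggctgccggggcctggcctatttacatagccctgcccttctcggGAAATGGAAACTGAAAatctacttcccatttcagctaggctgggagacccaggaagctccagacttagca
Oas3 (chr5:120777610-120777909, strand minus): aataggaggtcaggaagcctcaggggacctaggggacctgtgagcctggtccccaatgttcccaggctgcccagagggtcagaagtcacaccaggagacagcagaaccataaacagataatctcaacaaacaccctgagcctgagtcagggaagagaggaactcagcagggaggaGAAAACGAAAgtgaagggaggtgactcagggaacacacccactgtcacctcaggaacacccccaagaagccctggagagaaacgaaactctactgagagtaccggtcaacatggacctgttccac
Gbp2 (chr3:142620413-142620712, strand plus): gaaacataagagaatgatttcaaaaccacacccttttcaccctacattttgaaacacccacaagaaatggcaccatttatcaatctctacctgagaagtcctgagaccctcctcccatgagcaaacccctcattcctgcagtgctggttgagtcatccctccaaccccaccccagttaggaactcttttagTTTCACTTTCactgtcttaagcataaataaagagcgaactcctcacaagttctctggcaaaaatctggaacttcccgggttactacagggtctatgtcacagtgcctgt
Ifit3 (chr19:34583279-34583578, strand plus): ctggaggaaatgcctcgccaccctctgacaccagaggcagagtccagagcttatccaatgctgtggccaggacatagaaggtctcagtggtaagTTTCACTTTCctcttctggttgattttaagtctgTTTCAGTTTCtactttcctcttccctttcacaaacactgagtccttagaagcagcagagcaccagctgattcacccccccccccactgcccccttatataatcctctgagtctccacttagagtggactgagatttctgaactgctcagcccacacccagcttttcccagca

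Among myeloid lists, genes of monocytes and interstitial macrophages were more often higher and those of alveolar macrophages more often lower. Of 21 monocyte and interstitial macrophage genes 9 were higher and 3 lower in both fits, and of 18 alveolar macrophage genes 2 were higher and 7 lower in both fits. Their median GC contents were 51.8% and 47.8%, in deciles where 53.7% of all genes were called higher and 68.6% lower without the correction. The listed genes of monocytes summed to 10170, 11095 and 13778 CPM at 24 months and 11240, 12031 and 14176 CPM at 12 months. Those of alveolar macrophages summed to 1411, 1434 and 2029 CPM and 1301, 1454 and 1845 CPM, so neither sum separated the ages. Cd68, a lysosomal protein of macrophages, had 129.8, 184 and 229.5 CPM in mice of 24 months, against 51.5, 56.8 and 47.5 CPM in mice of 12 months. The contrast was 1.80 ± 0.21 at adjusted p = 3.4e-06, and with the correction 1.39 ± 0.15 at adjusted p = 7.9e-06. Ly6c2, a marker of inflammatory monocytes, had 41.9, 68.5 and 30.9 CPM in mice of 24 months, against 19.4, 17.9 and 25.4 CPM in mice of 12 months. The estimate was 1.18 ± 0.27 at adjusted p = 9.5e-04, and with the correction 1.88 ± 0.24 at adjusted p = 2.7e-05. Every 24-month mouse lay above every 12-month mouse for both. C1qa and C1qc, chains of the first complement component made by macrophages, had 2.06 ± 0.22 (corrected 0.78 ± 0.14) and 1.76 ± 0.18 (corrected 0.67 ± 0.17), and Ace, also an endothelial enzyme, 2.13 ± 0.24 (corrected 0.68 ± 0.12). Lyz2, lysozyme of macrophages and type 2 cells, was lower (-1.63 ± 0.19, corrected -0.83 ± 0.14). Pparg, the factor that specifies alveolar macrophages, had 5.10, 4.22 and 2.93 CPM in mice of 24 months, against 15.3, 17.1 and 22.4 CPM in mice of 12 months (-2.14 ± 0.23 at adjusted p = 1.9e-06, and with the correction -2.02 ± 0.21 at adjusted p = 5.2e-06), and Mrc1, a mannose receptor, -2.74 ± 0.32 (corrected -0.58 ± 0.16). Chil3, a chitinase-like protein of alveolar macrophages, had -2.17 ± 0.27 (corrected -0.77 ± 0.23), and its corrected call was lost without 24-month mouse 2 (-0.58) or 12-month mouse 3 (-0.55).

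Of 24 complement genes 8 were higher and 6 lower in both fits. Cfp, properdin, which stabilises the alternative pathway, had 2.11 ± 0.23 (corrected 0.99 ± 0.23), and C5ar1, the receptor for C5a, 31.3, 38.9 and 32.1 CPM in mice of 24 months, against 15.7, 21.1 and 10.3 CPM in mice of 12 months. edgeR gave 1.119 ± 0.23 at adjusted p = 3.9e-04, and with the correction 1.56 ± 0.18 at adjusted p = 1.3e-05. Cd59a, which blocks the membrane attack complex, had 6.502, 6.76 and 2.69 CPM in mice of 24 months, against 29.2, 28.7 and 37.2 CPM in mice of 12 months. That gave -2.55 ± 0.27 at adjusted p = 1.5e-06, and with the correction -1.15 ± 0.16 at adjusted p = 4.7e-05. The receptor and properdin were thus higher in all 24-month mice and the inhibitor lower in all of them. Irf8, a factor of dendritic cells and monocytes, had 2.08 ± 0.28 (corrected 1.595 ± 0.28).

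**Figure D4:**
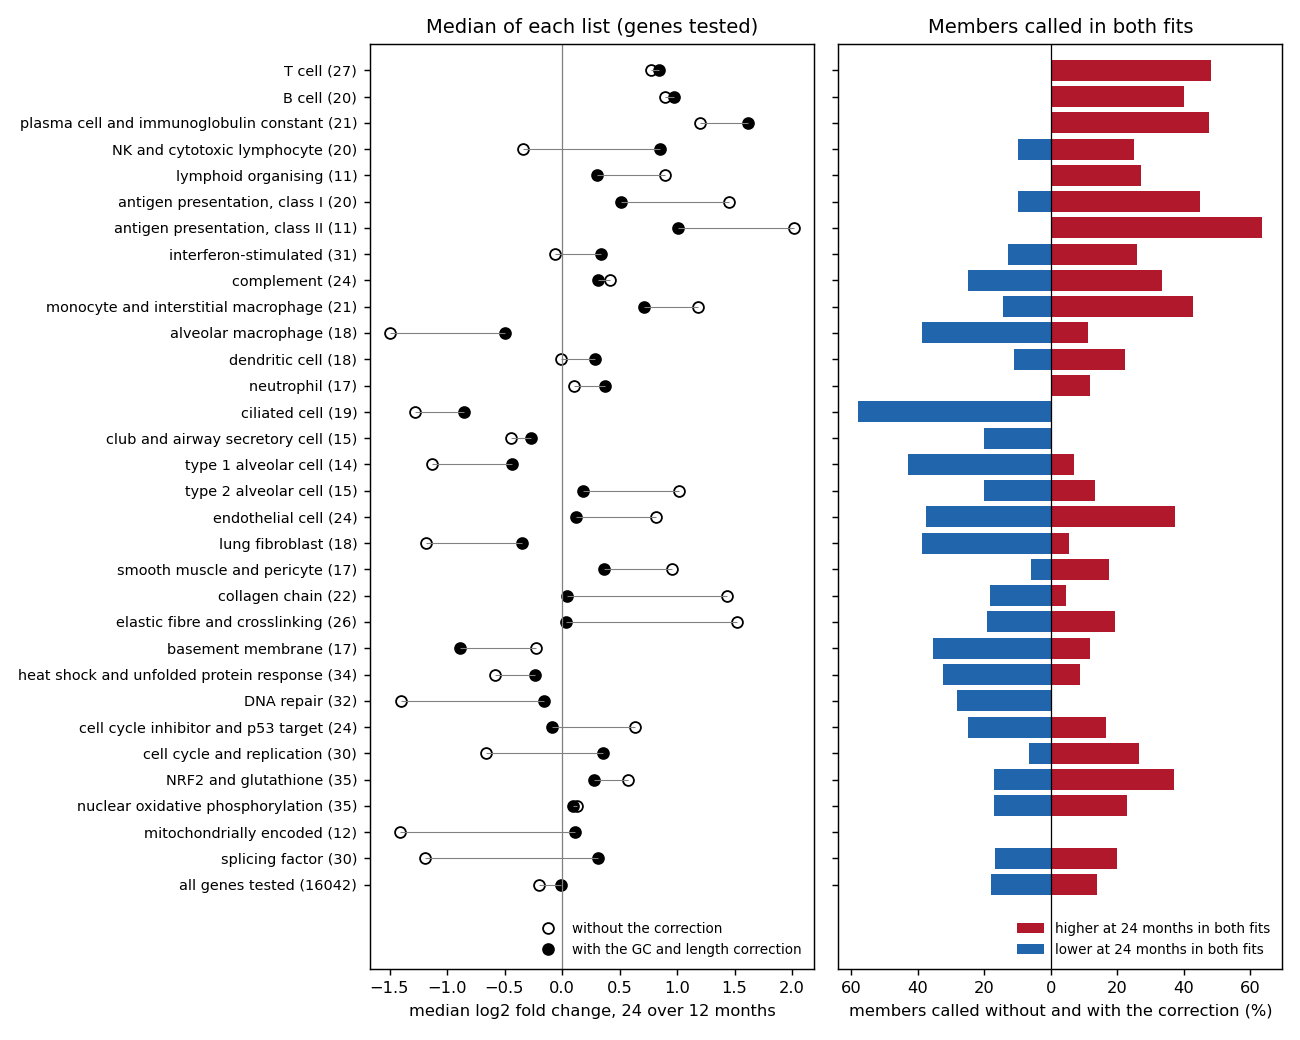
Left, median log2 fold change of 24 over 12 months of each gene list without (open) and with (filled) the GC and length correction, with the number of genes tested. Right, percent of members called higher (right of 0) or lower (left of 0) in both fits. T cell, B cell, plasma cell, lymphoid organising, class II and neutrophil lists have no member lower in both fits. Ciliated cell, club cell and DNA repair lists have none higher, and the mitochondrially encoded list has none in either direction. The shares over all genes are 13.9% higher and 18.0% lower.

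Ciliated cell genes were more often lower than higher at 24 months. Motile cilia sweep mucus out of the airways, and their axonemes need dynein arms, tektins and radial spokes. Of 19, 4 were called higher and 15 lower without the correction (median log2 -1.28), and 0 higher and 14 lower with it (median -0.85). In both fits 11 were lower (57.9% of the list, against 18.0% of all genes) and 0 higher, and the counts without 24-month mouse 3 were 0 higher and 11 lower. The summed level of the listed genes, without the correction, went the other way. It was 1930, 2014 and 2678 CPM at 24 months and 1443, 1770 and 1646 CPM at 12 months, so the counts do not describe the total of ciliated cell transcripts. Tekt1, a tektin of the microtubule doublet, had 16.1, 13.5 and 8.78 CPM in mice of 24 months, against 30.3, 39.2 and 38.3 CPM in mice of 12 months. The fit gave -1.48 ± 0.23 at adjusted p = 3.3e-05, and with the correction -1.69 ± 0.19 at adjusted p = 1.2e-05. Fam183b, a ciliary protein, had 8.56, 8.43 and 3.86 CPM in mice of 24 months, against 29.5, 32.7 and 44.2 CPM in mice of 12 months. This was -2.33 ± 0.28 at adjusted p = 4.4e-06, and with the correction -1.93 ± 0.21 at adjusted p = 9.0e-06. The ages did not overlap for either, and 24-month mouse 3 was lowest. Ccdc113, a protein of the ciliary base and axoneme, had -2.23 ± 0.27 (corrected -1.59 ± 0.23), Sntn, sentan of the ciliary tip, -2.61 ± 0.33 (corrected -0.996 ± 0.20), and Dnah5, an outer arm dynein, -2.70 ± 0.36 (corrected -0.86 ± 0.24) (-0.55 corrected without 12-month mouse 3). Foxj1, the master factor of ciliated cells, had 447, 461 and 769 CPM in mice of 24 months, against 224, 289 and 226 CPM in mice of 12 months, and its sign turned with the correction (1.18 ± 0.23 at adjusted p = 2.5e-04, and with the correction -0.51 ± 0.17 at adjusted p = 0.024). Of 12 radial spoke and cilia-and-flagella genes 2 were higher and 5 lower in both fits, and of 15 dynein heavy chain genes 1 was higher and 4 lower in both fits (0 higher and 4 lower without 24-month mouse 3). Wdr96, a ciliary gene outside the ciliated cell list, was higher at 194, 237 and 568 CPM in mice of 24 months, against 106, 108 and 122 CPM in mice of 12 months (1.57 ± 0.31 at adjusted p = 2.4e-04, and with the correction 3.74 ± 0.49 at adjusted p = 7.7e-05).

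Other airway and alveolar genes moved member by member. Of 15 club cell genes 0 were higher and 3 lower in both fits. Aldh1a7, an aldehyde dehydrogenase of club cells, had 19.9, 13.2 and 9.60 CPM in mice of 24 months, against 127, 139.6 and 199.96 CPM in mice of 12 months (-3.44 ± 0.27 at adjusted p = 8.2e-07, and with the correction -2.25 ± 0.17 at adjusted p = 1.3e-06), and Pon1, a paraoxonase, -2.31 ± 0.24 (corrected -0.60 ± 0.13). Scgb1a1, the main club cell secretoglobin, had 39485, 29983 and 11211 CPM in mice of 24 months, against 27086, 33490.0 and 32317 CPM in mice of 12 months and was called in neither fit (-0.20 ± 0.32 at adjusted p = 0.57, and with the correction -0.08 ± 0.35 at adjusted p = 0.87). Of 14 type 1 cell genes 1 was higher and 6 lower in both fits (3 higher and 5 lower without 24-month mouse 3). Akap5, a kinase anchor, had -3.13 ± 0.35 (corrected -1.06 ± 0.18), Clic5, a chloride channel-like protein, -2.68 ± 0.35 (corrected -0.88 ± 0.19), and Cav1, the caveolin of thin alveolar walls, 195, 173 and 92.5 CPM in mice of 24 months, against 797, 675 and 1384 CPM in mice of 12 months. The contrast was -2.63 ± 0.30 at adjusted p = 2.9e-06, and with the correction -0.74 ± 0.13 at adjusted p = 5.1e-04. Ager had 7284, 7173 and 9680.3 CPM in mice of 24 months, against 3872, 4221 and 3535 CPM in mice of 12 months, with 1.05 ± 0.20 at adjusted p = 1.6e-04 and -0.41 ± 0.16 at adjusted p = 0.044 with the correction, a call lost without 24-month mouse 2 (-0.46) or 3 (-0.23) or any 12-month mouse (-0.45 to -0.37). Emp2, a membrane protein of type 1 cells, had 0.61 ± 0.27 and 1.03 ± 0.17 with the correction, and its uncorrected call was lost without 24-month mouse 1 (0.47) or 2 (0.47), or without 12-month mouse 1 (0.57) or 3 (0.36).

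Of 15 type 2 cell genes 2 were higher and 3 lower in both fits. Lyz1, a lysozyme, had 78.4, 81.9 and 91.1 CPM in mice of 24 months, against 353, 408 and 694 CPM in mice of 12 months. The estimate was -2.53 ± 0.25 at adjusted p = 1.1e-06, and with the correction -1.61 ± 0.20 at adjusted p = 2.3e-05. Ctsh, a cathepsin that processes surfactant protein, had 182, 200.2 and 149 CPM in mice of 24 months, against 393, 438 and 577 CPM in mice of 12 months. edgeR gave -1.41 ± 0.21 at adjusted p = 2.5e-05, and with the correction -1.34 ± 0.19 at adjusted p = 7.6e-05. Both were lower in every 24-month mouse. None of the 4 surfactant proteins tested was called in the same direction by both fits. Sftpc had 23563, 22068 and 26460.0 CPM in mice of 24 months, against 23731, 25896 and 25308 CPM in mice of 12 months (-0.06 ± 0.18 at adjusted p = 0.78, and -0.52 ± 0.11 at adjusted p = 0.002 with the correction). This result turned on the scaling: with library totals Sftpc had -0.68 and was called, and in the authors' deposited FPKM, also scaled to library totals, it stood at 24188, 21031 and 17145 at 24 months and 32115, 34228 and 33402 at 12 months without overlap. Sftpb, the surfactant protein needed for lamellar bodies, had 9212, 9412 and 12890.0 CPM in mice of 24 months, against 5006, 5600.2 and 4241 CPM in mice of 12 months. The ages did not overlap, with 1.09 ± 0.20 at adjusted p = 1.2e-04, and with the correction -0.27 ± 0.15 at adjusted p = 0.16. Sftpd, a collectin, overlapped between ages and was called in neither fit (-0.24 ± 0.28 at adjusted p = 0.43, and with the correction 0.09 ± 0.22 at adjusted p = 0.77), though with library totals it had -0.77 and was called lower. Sftpa1 had -1.40 ± 0.18 at adjusted p = 8.3e-06, and 0.38 ± 0.14 at adjusted p = 0.043 with the correction, a sign change whose call was lost without 24-month mouse 1 (0.41) or 3 (0.24), or without 12-month mouse 1 (0.38) or 3 (0.28). Lamp3, a lamellar body protein, had -2.71 ± 0.43 (corrected -0.63 ± 0.21), and lost that call without 24-month mouse 3 (-0.39) or 12-month mouse 3 (-0.44).

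The endothelial list held equal numbers in each direction, with 9 of 24 members higher and 9 lower in both fits. Erg, the transcription factor that keeps endothelial identity, had 14.1, 11.997 and 6.91 CPM in mice of 24 months, against 56.8, 43.7 and 79.8 CPM in mice of 12 months. That gave -2.44 ± 0.27 at adjusted p = 2.0e-06, and with the correction -2.69 ± 0.28 at adjusted p = 8.0e-06. Tek, the angiopoietin receptor, had 45.7, 45.7 and 16.7 CPM in mice of 24 months, against 249, 198 and 348 CPM in mice of 12 months (-2.87 ± 0.33 at adjusted p = 2.8e-06, and with the correction -1.48 ± 0.22 at adjusted p = 8.7e-05), and Pecam1, the CD31 adhesion protein, 589, 458 and 239 CPM in mice of 24 months, against 967, 804 and 842 CPM in mice of 12 months. The fit gave -1.02 ± 0.26 at adjusted p = 0.002, and with the correction -1.02 ± 0.19 at adjusted p = 6.7e-04. Vwf, the clotting protein stored by endothelium and megakaryocytes, went the other way, with 2988, 5749 and 8785 CPM in mice of 24 months, against 787, 822 and 895 CPM in mice of 12 months. This was 2.81 ± 0.33 at adjusted p = 3.3e-06, and with the correction 1.08 ± 0.18 at adjusted p = 2.7e-04. For these 4 genes the ages did not overlap. Ednrb, the endothelin B receptor, had -2.95 ± 0.34 (corrected -0.96 ± 0.19), and Cdh5, the endothelial cadherin, -0.52 ± 0.23 (corrected -1.18 ± 0.15), its uncorrected call being lost without 24-month mouse 2 (-0.56) or 3 (-0.37), or without 12-month mouse 1 (-0.50) or 2 (-0.57). Blood genes are set beside this list. Of 14 erythroid and platelet genes 7 were higher and 1 lower in both fits, and the 15 listed genes summed to 5043, 4431 and 6880 CPM at 24 months and 4099, 3957 and 3707 CPM at 12 months. Their part in the Vwf result was not tested.

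Among those blood genes, Itga2b and Gp1bb, platelet receptor chains, had 3.09 ± 0.45 (corrected 1.48 ± 0.47) and 3.28 ± 0.46 (corrected 1.82 ± 0.53). Their corrected calls were lost without 24-month mouse 2 (0.92 and 1.01), 12-month mouse 1 (1.28 and 1.62) or 12-month mouse 2 (1.17 and 1.499). Slc4a1, the anion exchanger of red cells, had 2.99 ± 0.37 (corrected 1.59 ± 0.40), while Hbb-bs, a beta globin, was lower at 1077, 568 and 478 CPM in mice of 24 months, against 2152, 2161 and 1904 CPM in mice of 12 months. The contrast was -1.55 ± 0.30 at adjusted p = 1.9e-04, and with the correction -1.47 ± 0.28 at adjusted p = 7.4e-04. Reads of all haemoglobin genes made up 0.348, 0.235 and 0.309% of reads at 24 months and 0.416, 0.396 and 0.348% at 12 months, which overlapped (exact two-sided permutation p = 0.2). Globin genes are near-identical copies, so reads may have been shared among them.

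The call of most collagen genes depended on the correction. Of 22 collagen chains 15 were called higher and 5 lower without the correction (median log2 1.44), and 1 higher and 6 lower with it (median 0.04), and the list has a median GC content of 56.0%. Col1a1, the type I collagen chain, had 516, 560.3 and 1120.3 CPM in mice of 24 months, against 217, 164 and 152 CPM in mice of 12 months, with 2.04 ± 0.31 at adjusted p = 3.0e-05 and 0.19 ± 0.16 at adjusted p = 0.37 with the correction. Col5a1 and Col4a1 had the same pattern (2.25 ± 0.30 and 1.84 ± 0.25 without, 0.37 ± 0.15 at adjusted p = 0.053 and 0.12 ± 0.12 at adjusted p = 0.42 with it). Col3a1, the type III chain, had 195, 173 and 146 CPM in mice of 24 months, against 213, 185 and 119 CPM in mice of 12 months, with -0.01 ± 0.23 at adjusted p = 0.98 and -0.61 ± 0.16 at adjusted p = 0.0058 with the correction. A pair of chains of other kinds fell in both fits: Col4a3, of the alveolar basement membrane, had 23.7, 21.4 and 14.1 CPM in mice of 24 months, against 72.9, 71.8 and 101 CPM in mice of 12 months (-2.05 ± 0.29 at adjusted p = 1.5e-05, and with the correction -1.54 ± 0.22 at adjusted p = 8.1e-05), and Col12a1, a fibril-associated collagen, -2.005 ± 0.23 (corrected -0.61 ± 0.13).

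Of 17 basement membrane genes 7 were called higher and 7 lower without the correction (median log2 -0.23), and 2 higher and 9 lower with it (median -0.89), and 2 were higher and 6 lower in both fits. Lama3, the laminin chain that anchors epithelium, had 18.9, 19.4 and 7.14 CPM in mice of 24 months, against 92.6, 87.1 and 109 CPM in mice of 12 months (-2.65 ± 0.34 at adjusted p = 7.5e-06, and with the correction -2.65 ± 0.28 at adjusted p = 8.6e-06), and Lama4, a laminin chain of vessels, 25.9, 19.05 and 19.1 CPM in mice of 24 months, against 78.0, 67.9 and 81.3 CPM in mice of 12 months. The estimate was -1.82 ± 0.20 at adjusted p = 2.2e-06, and with the correction -1.35 ± 0.17 at adjusted p = 2.6e-05. Nid1, nidogen, had -1.52 ± 0.19 (corrected -1.19 ± 0.18), and Npnt, nephronectin, -1.40 ± 0.24 (corrected -1.20 ± 0.13). Elastic fibre genes divided. Eln, elastin, had 1.72 ± 0.29 at adjusted p = 7.6e-05 (1.15 without 24-month mouse 3) and 0.03 ± 0.14 at adjusted p = 0.88 with the correction. Fbn1, the fibrillin of microfibrils, had 27.4, 23.3 and 11.5 CPM in mice of 24 months, against 66.4, 53.01 and 62.3 CPM in mice of 12 months (-1.54 ± 0.26 at adjusted p = 6.8e-05, and with the correction -1.73 ± 0.24 at adjusted p = 6.3e-05), while Fbln5, which assembles elastin onto them, had 298, 311 and 196 CPM in mice of 24 months, against 191, 193 and 112 CPM in mice of 12 months (0.70 ± 0.24 at adjusted p = 0.013, and with the correction 2.27 ± 0.21 at adjusted p = 2.6e-06), its uncorrected call being lost without 24-month mouse 2 (0.58) or 12-month mouse 1 (0.62). Plod2, a collagen lysyl hydroxylase, had -2.78 ± 0.32 (corrected -0.78 ± 0.18). Of 18 fibroblast genes 1 was higher and 7 lower in both fits, and without the correction 6 were called higher and 11 lower. The listed fibroblast genes summed to 4686, 4495 and 4294 CPM at 24 months and 4732.5, 4295 and 4189 CPM at 12 months. These sums overlapped, so the counts do not describe the total of fibroblast transcripts. Dpt, dermatopontin, had 51.8, 47.5 and 44.6 CPM in mice of 24 months, against 149, 139.5 and 166 CPM in mice of 12 months (-1.66 ± 0.18 at adjusted p = 2.0e-06, and with the correction -1.01 ± 0.12 at adjusted p = 1.4e-05), Pdgfra, the receptor of alveolar fibroblasts, -2.43 ± 0.27 (corrected -1.17 ± 0.16), and Meox2, a mesenchymal homeobox factor, -2.78 ± 0.33 (corrected -1.52 ± 0.29). Of smooth muscle genes, Myh11, the smooth muscle myosin, had 37.9, 33.7 and 19.3 CPM in mice of 24 months, against 82.6, 76.8 and 85.0 CPM in mice of 12 months (-1.42 ± 0.24 at adjusted p = 6.6e-05, and with the correction -2.23 ± 0.27 at adjusted p = 2.1e-05), and Acta2, its actin, 427, 372 and 445 CPM in mice of 24 months, against 243, 242 and 297 CPM in mice of 12 months (0.67 ± 0.24 at adjusted p = 0.018, and with the correction 1.05 ± 0.21 at adjusted p = 8.8e-04), which lost its uncorrected call without 12-month mouse 1 (0.42) or 2 (0.62). Myosin and actin thus moved in opposite directions.

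**Figure D5:**
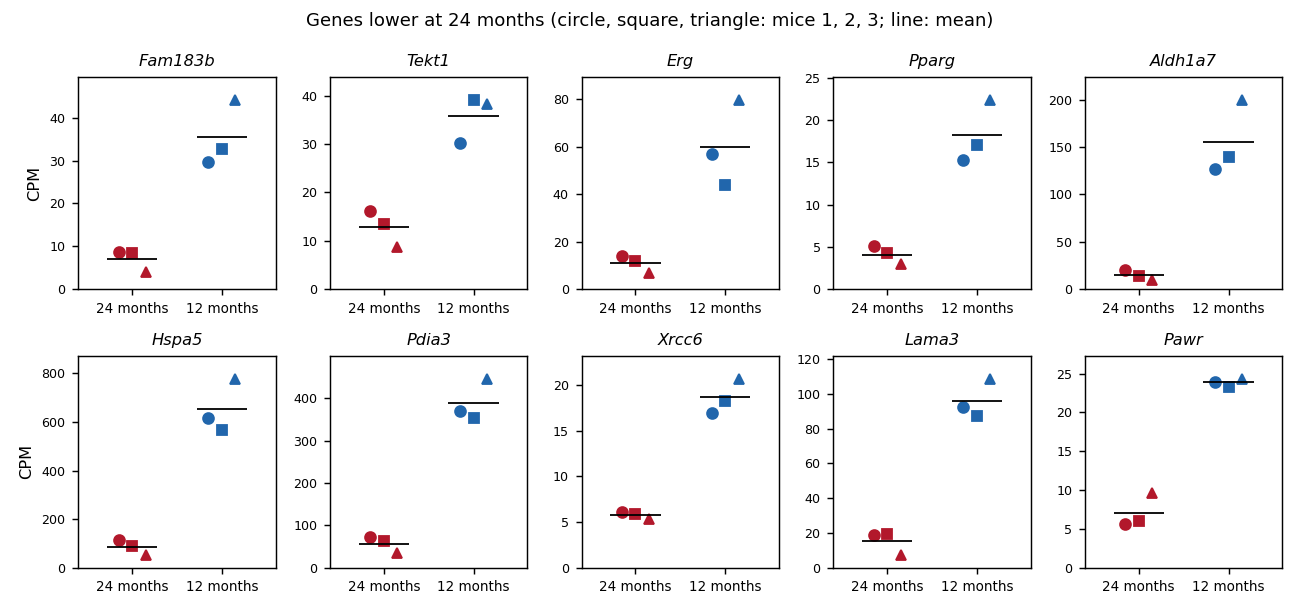
CPM of 10 genes in each mouse, 24 months left and 12 months right, with circle, square and triangle for mice 1, 2 and 3 and a line at the mean. The groups do not overlap in any panel, and 24-month mouse 3 is the lowest of its age for Fam183b, Tekt1, Erg, Pparg, Aldh1a7, Hspa5, Pdia3, Xrcc6 and Lama3 and the highest for Pawr.

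Chaperone genes were more often lower than higher at 24 months. Those of the endoplasmic reticulum fold secreted proteins and are induced when unfolded protein builds up. Of 34 heat shock and unfolded protein response genes 8 were called higher and 17 lower without the correction (median log2 -0.59), and 7 higher and 12 lower with it (median -0.24), and 3 were higher and 11 lower in both fits (1 higher and 10 lower without 24-month mouse 3). Hspa5, the BiP chaperone, had 115, 91.5 and 51.5 CPM in mice of 24 months, against 615, 566 and 778 CPM in mice of 12 months. edgeR gave -2.92 ± 0.27 at adjusted p = 8.8e-07, and with the correction -1.49 ± 0.14 at adjusted p = 3.0e-06. Pdia3, a disulfide isomerase, had 72.3, 63.8 and 34.4 CPM in mice of 24 months, against 369.8, 353 and 446 CPM in mice of 12 months. That gave -2.77 ± 0.27 at adjusted p = 9.3e-07, and with the correction -1.64 ± 0.15 at adjusted p = 3.0e-06. For both, the lowest 12-month mouse was more than 4 times the highest 24-month mouse. Canx, calnexin, had -2.75 ± 0.31 (corrected -0.55 ± 0.13), and Dnajc3, a cochaperone of BiP, -2.80 ± 0.25 (corrected -0.60 ± 0.13). Derl3, a factor of protein export from the endoplasmic reticulum that is also high in plasma cells, went the other way (3.10 ± 0.48, corrected 1.74 ± 0.34, and 1.97 and 1.07 without 24-month mouse 3). The GC content of this list has a median of 48.3%. In that decile 14.6% of all genes were called higher and 50.3% lower without the correction. With it the decile had 29.2% higher and 32.3% lower, so the counts of this list lay near those of its decile.

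DNA repair genes were more often lower than higher in each fit. Of 32, 9 were called higher and 20 lower without the correction (median log2 -1.40), and 2 higher and 9 lower with it (median -0.15), with 9 lower and 0 higher in both (0 higher and 8 lower without 24-month mouse 3). Over all genes 22.0% were higher and 22.5% lower with the correction. The median GC content of the list was 48.4%, in a decile where 14.6% of genes were called higher and 50.3% lower without the correction. A call in both fits was thus less open to rises there. The listed genes summed to 509, 532 and 737 CPM at 24 months and 492, 494 and 501 CPM at 12 months. Xrcc6, the Ku70 subunit of end joining, had 6.09, 5.89 and 5.39 CPM in mice of 24 months, against 17.0, 18.2 and 20.7 CPM in mice of 12 months. The fit gave -1.68 ± 0.19 at adjusted p = 3.0e-06, and with the correction -2.64 ± 0.21 at adjusted p = 1.6e-06. Wrn, the helicase lost in Werner syndrome, had 1.07, 1.38 and 0.468 CPM in mice of 24 months, against 9.73, 7.79 and 18.0 CPM in mice of 12 months. This was -3.53 ± 0.38 at adjusted p = 1.9e-06, and with the correction -1.26 ± 0.23 at adjusted p = 4.3e-04. For both genes every 24-month mouse lay below every 12-month mouse. Xrcc6 has a GC content of 53.2%, on the side where most genes had more reads at 24 months.

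Cell cycle inhibitors and p53 targets showed no common direction. Of 24, 13 were called higher and 9 lower without the correction (median log2 0.64), and 5 higher and 7 lower with it (median -0.08). Cdkn1a, the p21 inhibitor, had 246, 252 and 381 CPM in mice of 24 months, against 97.1, 93.0 and 88.2 CPM in mice of 12 months (1.66 ± 0.24 at adjusted p = 1.6e-05, and with the correction 0.65 ± 0.18 at adjusted p = 0.0089), and Zmat3, a p53 target, 49.8, 50.02 and 40.6 CPM in mice of 24 months, against 25.3, 26.9 and 12.4 CPM in mice of 12 months. The contrast was 1.119 ± 0.25 at adjusted p = 7.6e-04, and with the correction 2.64 ± 0.24 at adjusted p = 2.4e-06. Mdm2, the p53 ligase, and Sesn1, a sestrin, were lower (-2.56 ± 0.22, corrected -1.14 ± 0.13, and -1.93 ± 0.20, corrected -1.77 ± 0.20). Cdkn2a, the p16 and p19 locus, had 2.14, 1.75 and 3.98 CPM in mice of 24 months, against 1.38, 1.11 and 0.700 CPM in mice of 12 months, with 1.25 ± 0.41 at adjusted p = 0.01, a call lost without 24-month mouse 3 (0.84), and -0.03 ± 0.35 at adjusted p = 0.95 with the correction. Its groups did not overlap, though all levels were below 4 CPM. Lmnb1, a lamin known to fall in senescent cells, had 0.55 ± 0.21 at adjusted p = 0.023 and -0.35 ± 0.14 at adjusted p = 0.055 with the correction, the first call being lost without 24-month mouse 2 (0.42) or 12-month mouse 1 (0.34) or 3 (0.40). Tert, telomerase, was under 1 CPM in every mouse and not called in either fit (0.24 ± 0.63 at adjusted p = 0.73, and -0.71 ± 0.59 at adjusted p = 0.35 with the correction). Sirt1, a deacetylase tied to longevity, had 3.29, 4.07 and 1.05 CPM in mice of 24 months, against 14.8, 15.6 and 17.6 CPM in mice of 12 months, with -2.46 ± 0.30 at adjusted p = 5.2e-06 and -0.47 ± 0.20 at adjusted p = 0.072 with the correction. Of 30 replication and cell cycle genes 8 were higher and 2 lower in both fits (6 higher and 2 lower without 24-month mouse 3). Rrm2, a ribonucleotide reductase subunit, had 1.17 ± 0.31 (corrected 2.505 ± 0.37) and Mcm2, a replicative helicase subunit, 1.69 ± 0.24 (corrected 1.21 ± 0.21).

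Antioxidant genes of the NRF2 pathway were more often higher, with 13 of 35 members higher and 6 lower in both fits, though with library totals 10 were higher and 14 lower. Gpx2, a glutathione peroxidase, had 78.4, 75.3 and 89.4 CPM in mice of 24 months, against 48.5, 61.6 and 43.4 CPM in mice of 12 months (0.66 ± 0.19 at adjusted p = 0.0047, and with the correction 1.46 ± 0.16 at adjusted p = 1.0e-05), an uncorrected call that was lost without 12-month mouse 1 (0.42). Gss, glutathione synthetase, had 0.57 ± 0.20 (corrected 1.40 ± 0.14), lost likewise without 24-month mouse 1 (0.49) or 12-month mouse 1 (0.40). Gclc, the rate-limiting enzyme of glutathione synthesis, had 30.9, 25.2 and 13.1 CPM in mice of 24 months, against 123, 137 and 99.5 CPM in mice of 12 months. The estimate was -2.37 ± 0.28 at adjusted p = 3.3e-06, and with the correction -1.36 ± 0.17 at adjusted p = 2.7e-05.

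Mitochondrially encoded genes, all of low GC content (median 37.4%), were lower without the correction and not with it. Of 12 tested, 0 were called higher and 9 lower without the correction (median log2 -1.41), and 2 higher and 0 lower with it (median 0.11), and none was called in the same direction in both. mt-Co1, a cytochrome oxidase subunit, had 2528, 2309 and 3368 CPM in mice of 24 months, against 7604, 7844 and 12641 CPM in mice of 12 months, with -1.78 ± 0.23 at adjusted p = 7.8e-06 and 0.02 ± 0.22 at adjusted p = 0.95 with the correction. mt-Nd5 and mt-Nd6, complex I subunits, had -0.44 ± 0.28 and -0.36 ± 0.22 (adjusted p = 0.16 and 0.14) and 1.39 ± 0.34 and 1.08 ± 0.20 with the correction (0.90 for mt-Nd5 without 24-month mouse 3). Of 35 nuclear oxidative phosphorylation genes 8 were higher and 6 lower in both fits. Cox5a, a cytochrome oxidase subunit of 41.6% GC, had 44.0, 46.8 and 52.9 CPM in mice of 24 months, against 23.7, 25.9 and 18.9 CPM in mice of 12 months (1.07 ± 0.21 at adjusted p = 2.0e-04, and with the correction 2.31 ± 0.24 at adjusted p = 5.9e-06), against the trend, and Sdhc, an anchor of succinate dehydrogenase, 0.69 ± 0.19 (corrected 1.34 ± 0.14). Ndufs1, a core complex I subunit, was lower (-2.44 ± 0.21, corrected -0.88 ± 0.13).

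RNA processing and translation genes also divided. Of 30 splicing factors 8 were called higher and 18 lower without the correction (median log2 -1.20), and 12 higher and 5 lower with it (median 0.31), and 6 were higher and 5 lower in both fits, with 5 called in opposite directions by the fits. Srsf9, an SR protein, had 113, 126 and 182 CPM in mice of 24 months, against 45.3, 43.6 and 38.6 CPM in mice of 12 months (1.72 ± 0.21 at adjusted p = 4.5e-06, and with the correction 2.38 ± 0.19 at adjusted p = 1.7e-06), Sf3a1, of the U2 particle, 1.55 ± 0.21 (corrected 1.97 ± 0.21), and Srsf11, another SR protein, 13.7, 12.9 and 7.14 CPM in mice of 24 months, against 65.02, 58.3 and 84.9 CPM in mice of 12 months. edgeR gave -2.61 ± 0.25 at adjusted p = 9.4e-07, and with the correction -0.95 ± 0.13 at adjusted p = 3.8e-05. These SR proteins moved in opposite directions without overlap between ages. Cytosolic ribosomal protein genes were more often lower: of 93, 22 were called higher and 51 lower without the correction (median log2 -0.66), and 20 higher and 44 lower with it (median -0.34), and 13 were higher and 36 lower in both fits. Rpl26, a protein of the large subunit, had 193, 182 and 169 CPM in mice of 24 months, against 468, 507 and 653 CPM in mice of 12 months. That gave -1.58 ± 0.21 at adjusted p = 9.1e-06, and with the correction -2.19 ± 0.18 at adjusted p = 1.7e-06. Of 332 tested genes with Zfp symbols, most of them zinc finger factors, 74 were called higher and 227 lower without the correction (median log2 -1.90), and 40 higher and 84 lower with it (median -0.27), and 26 were higher and 77 lower in both fits. Their median GC content was 44.8%.

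A set of genes moved against the GC trend in the deposited reads themselves. Among 4785 genes in the lowest 3 deciles of GC content (up to 46.2%) 88 were called higher in both fits, and among 4785 in the highest 3 deciles (from 53.6%) 89 were called lower in both. Over all genes these shares were 13.9% higher and 18.0% lower. The correction moved the medians of the lowest 3 deciles from -2.18, -2.18 and -1.84 to -0.13, -0.21 and -0.21. Those of the highest 3 went from 1.20, 1.48 and 1.72 to 0.14, 0.097 and 0.041. Genes against the trend were thus given larger folds with it, so the second call adds little and their corrected folds hold that shift. The largest of these were listed after the values were seen. On the GC-poor side Cd3e was the largest rise, followed among annotated genes by Ppp2r3d, Tspan33, Syp, Wdr96, Bcl11a, Xpo6, Lef1 and Plekhb2. Xpo6, the export receptor for actin, had 116, 135 and 121 CPM in mice of 24 months, against 52.6, 53.6 and 31.6 CPM in mice of 12 months (1.43 ± 0.21 at adjusted p = 2.4e-05, and with the correction 3.60 ± 0.32 at adjusted p = 3.2e-06), and Plekhb2, a membrane-binding protein of endosomes, 383, 416 and 434 CPM in mice of 24 months, against 172, 194 and 109 CPM in mice of 12 months. The fit gave 1.38 ± 0.22 at adjusted p = 4.3e-05, and with the correction 3.196 ± 0.27 at adjusted p = 2.2e-06. On the GC-rich side the largest falls were of Pawr, Ccdc40, Isg20, Tchh, Calml4, Rpl26, Ubtd2, Ing1 and Foxa1. Isg20, an interferon-induced exonuclease, had 18.9, 20.1 and 14.1 CPM in mice of 24 months, against 47.8, 56.9 and 64.5 CPM in mice of 12 months. This was -1.67 ± 0.20 at adjusted p = 3.8e-06, and with the correction -2.66 ± 0.25 at adjusted p = 3.0e-06. Ing1, a chromatin reader, had 17.7, 18.2 and 19.3 CPM in mice of 24 months, against 52.3, 51.6 and 51.8 CPM in mice of 12 months (-1.49 ± 0.16 at adjusted p = 2.1e-06, and with the correction -2.77 ± 0.16 at adjusted p = 3.0e-07), and Foxa1, a pioneer factor of airway epithelium, 10.04, 10.9 and 11.6 CPM in mice of 24 months, against 31.0, 36.1 and 17.8 CPM in mice of 12 months. The contrast was -1.39 ± 0.24 at adjusted p = 8.8e-05, and with the correction -2.48 ± 0.17 at adjusted p = 8.0e-07. The ages did not overlap for any of these 5 genes.

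Levels over all 4 ages, as mean ± SD with n = 3 each, are given for 5 genes as a description. Cd3e had 4.66 ± 0.547, 5.71 ± 1.02, 7.81 ± 1.92 and 47.6 ± 22.0 CPM at 3, 6, 12 and 24 months. Nkg7 had 7.71 ± 1.33, 5.60 ± 0.662, 7.93 ± 1.28 and 44.8 ± 9.61 CPM. Both stood in a narrow range up to 12 months. Ighm had higher means at each later age, with 103.2 ± 12.8, 239 ± 144, 879 ± 148 and 2106 ± 549.7 CPM at 3, 6, 12 and 24 months. Tekt1 had 18.9 ± 2.26, 23.9 ± 3.55, 35.9 ± 4.90 and 12.8 ± 3.72 CPM over the same ages, and Hspa5 502 ± 46.9, 493 ± 46.9, 653 ± 111 and 86.1 ± 32.2 CPM.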

How the data were processed

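Per the submitters' processing notes, reads were handled with TopHat, STAR 2.5 and HTSeq 0.6.1 against mm10, with no role or order given. The authors' deposited counts are raw gene reads per library. The FPKM values deposited beside them equal gene reads scaled by gene length and library total for all 235411 values above 0 (within 1e-06), and were used only for lung markers. The deposited log2 fold changes and p-values compare each age with 3 months, per the file headers, and were not used here. The sources used here do not give strand use or the handling of reads shared by gene copies. No row lacked a gene name.

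Counts of all 12 libraries were fitted with edgeR 4.0.16 (R 4.3.3; TMM, its default filter for 4 ages, quasi-likelihood) and the 24 minus 12 month contrast tested with Benjamini-Hochberg adjustment at 0.05 over all tested genes. The corrected fit added offsets from a smooth of each library's log2 CPM (prior count 2) on GC content and length (mgcv 1.9.3, basis sizes 8 and 8). Of the gene IDs, 97.8% had a GC value. Nothing shows that the libraries of an age are more than separate mice by label, and p-values measure only the spread between them. Intervals are at 95%.

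The gene lists and the genes named were chosen with earlier results of these data known. Named were the 12 largest folds each way among genes called in the same direction by both fits without overlap, with a mean of at least 1 CPM and at least 4 pooled reads per age, the 6 largest each way with the correction, the members of a list with the smallest p, 4 genes each way near 0 reads, and a set of textbook genes. V segments, numbered models, clones and pseudogenes were left out. A few of these genes are not reported here. Alternatives were RLE factors, library totals (added after the data were seen), DESeq2 1.42.0, limma 3.58.1, other filters and smooths, the 6 libraries alone, a replicate block and leaving out each mouse. Promoters came from RefSeq (GRCm38.p6).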

Additional observations from a re-analysis of the deposited data

How the results depend on the processing

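The count of 12791 called genes was 7456 with a smooth on GC content and 7091 with the joint smooth on GC content and length, and the cause was not tested. Leaving out each mouse in turn gave 12288 to 12639 calls without and 6263 to 7161 with the correction. It was 12890 with RLE factors, 13029 with DESeq2, 12792 with limma voom, 12968 with no filter beyond 1 read, 12133 at a CPM of at least 1 and 11811 from the 6 libraries alone. With the correction 5119 genes were called from the 6 libraries alone. The deviations of same-numbered mice from the mean of their age had correlations of -0.0963, -0.171 and -0.246. These deviations hold each library's trend on GC content, so they cannot tell whether replicate numbers pair mice. A replicate block gave 12638 calls without and 6819 with the correction.

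Signs turned with the correction in single genes, with log2 values for the GC smooth and the joint smooth of 2.05 and 1.62 for Igj, -0.46 and -0.41 for Ager, -0.37 and -0.033 for Cdkn2a, -0.18 and -0.35 for Lmnb1, and -0.51 and -0.71 for Tert. They were 0.43 and 0.019 for mt-Co1, 1.66 and 1.39 for mt-Nd5, 1.56 and 1.08 for mt-Nd6, 0.99 and 0.98 for Ms4a1, and 0.42 and 0.38 for Sftpa1. They were -0.40 and -0.27 for Sftpb, 0.040 and 0.085 for Sftpd, and -0.45 and -0.51 for Foxj1. With library totals Lmnb1 had -0.064, H2-Aa -0.43, Gss -0.0031, Lss -0.18 and Tert -0.35, and 14 of 49 gene lists had more members higher than lower, against 27 with TMM. Genes near 0 turned under scaling: Sftpc had 0.067 with RLE and 0.067 with DESeq2, and Col3a1 had 0.10 with RLE, 0.10 with DESeq2, 0.025 with limma voom, 0.0046 with no filter and 0.016 with the replicate block.

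With each mouse left out, the range spanned 0 for Igj (-0.59 to 0.22), Sftpc (-0.30 to 0.0020), Sftpd (-0.47 to 0.0059), Scgb1a1 (-0.59 to 0.17), Col3a1 (-0.21 to 0.10), Tert (-0.24 to 0.60) and H2-Aa (-0.029 to 0.28). With the correction it did so for Scgb1a1 (-0.54 to 0.31), Sftpd (-0.11 to 0.29), Eln (-0.055 to 0.10), Cdkn2a (-0.22 to 0.23) and mt-Co1 (-0.39 to 0.22). The causes were not tested. Low levels limit Atm, Fancm, Zfp141 and Tert, which had under 1 CPM in every 24-month mouse.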

Other observations

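Further lists gave these counts called in both fits, beside 13.9% higher and 18.0% lower over all genes. Of 21 circadian clock genes 3 were higher and 0 lower in both fits, of 24 immediate early genes 3 were higher and 2 lower in both fits, and of 22 cholesterol and lipid synthesis genes 3 were higher and 5 lower in both fits. Among 27 sirtuin and longevity genes 3 were higher and 3 lower in both fits, and among 16 telomere and nuclear lamina genes 3 were higher and 3 lower in both fits. Of 30 inflammatory cytokine and senescence secretory genes 6 were higher and 6 lower in both fits, and of 40 Wnt, TGF-beta and BMP genes 6 were higher and 7 lower in both fits. Proteasome subunits were more often lower, and of 35 members 2 were higher and 11 lower in both fits. Of 26 matrix protease and inhibitor genes 2 were higher and 5 lower in both fits, and of 17 neutrophil genes 2 were higher and 0 lower in both fits (1 higher and 0 lower without 24-month mouse 3). Of 18 dendritic cell genes 4 were higher and 2 lower in both fits (4 higher and 1 lower without 24-month mouse 3), and of 8 lymphatic endothelial genes 0 were higher and 3 lower in both fits (1 higher and 3 lower without 24-month mouse 3). Of 26 elastic fibre and crosslinking genes 5 were higher and 5 lower in both fits (3 higher and 5 lower without 24-month mouse 3), and of 11 lymphoid organising genes 3 were higher and 0 lower in both fits. Among 12 mast cell, basophil and eosinophil genes 0 were higher and 0 lower in both fits (1 higher and 0 lower without 24-month mouse 3), among 4 Y-linked genes 0 were higher and 2 lower in both fits, and among 6 T cell receptor and 3 lambda V segments 0 moved in either direction. Of 18 heart muscle genes 1 was higher and 2 lower in both fits (0 higher and 1 lower without 24-month mouse 3), of 8 skin and squamous genes 1 was higher and 0 lower in both fits (0 higher and 0 lower without 24-month mouse 3), and of 11 nerve and Schwann cell genes 2 were higher and 0 lower in both fits (1 higher and 0 lower without 24-month mouse 3). None of 15 adipose, 3 thymus and 3 liver genes was called in both fits.

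Markers of tissues next to the lung were summed over each list. Adipose genes came to 1048, 989 and 2103 CPM at 24 months and 521, 686 and 781 CPM at 12 months. Liver genes came to 21.2, 13.1 and 5.74 CPM at 24 months and 22.3, 22.7 and 37.4 CPM at 12 months. Thymus genes came to 5.27 to 5.53 CPM at 24 months and 8.40 to 8.87 CPM at 12 months, and nerve and Schwann cell genes to 142 to 147 CPM at 24 months and 58.9 to 101 CPM at 12 months. The part of these tissues in the results above was not tested.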
